A study of Mus musculus with 51 samples.

Results

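Eomes, Tbx21, Zeb2, Cx3cr1 and Klrg1 are genes of effector memory CD8+ T cells, and 4 of these 5 named genes had a row in the deposited tables: Eomes, Tbx21, Zeb2 and Cx3cr1. They were found by gene symbol, as 4 of 10560 genes in the table of untreated libraries and 4 of 13458 genes in the table of libraries from immune checkpoint blockade (ICB). Klrg1, a lectin-like receptor used to mark short-lived effector cells, matched no row of either table and was not analysed here.

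CD8+ T cells were sorted from mammary tumors of the mouse line AT3-OVA, a triple-negative breast cancer model that carries ovalbumin, and from control spleens. Untreated tumors were sampled at weeks 1, 2, 4 and 6. The sorted subsets were CD103+CD69+ (DP, 13 libraries: 3, 4, 3 and 3 by week), CD103-CD69+ (SP, 11 libraries: 3, 3, 2 and 3) and CD103-CD69- (DN, 10 libraries: 2, 3, 3 and 2). The spleen gave naive, central memory (CM) and effector memory (EM) groups with 3 libraries each. The same sorts were made from tumors under ICB at day 40, with 3 DP, 3 SP and 2 DN libraries; the labels do not name the blocking agents, the mouse strain or the age, nor whether a library came from 1 animal or from a pool. CD69 and CD103, the product of Itgae, are the surface proteins by which tissue-resident memory T cells are usually recognised.

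The deposited values were normalized log2 values, and differences between groups are given on that log2 scale. A level in the untreated table is not an abundance, so levels are compared between groups for 1 gene and never between genes or between the tables. Read depth was not analysed here, because counts were not used. Of the 12 T-cell identity genes listed (among them Cd3e, Cd8a and Lck), 12 were measured in both tables, but presence cannot be read from such levels. A difference is called where the adjusted p of limma, a moderated linear model fitted over all genes of a table, is under 0.05. Itgae was higher in DP than in DN by 2.82 (SE 0.29, limma adjusted p = 2.801e-06), and Cd69 by 0.78 (SE 0.19, limma adjusted p = 0.005895). Itgae was also higher by 1.71 in SP, sorted as CD103-, than in DN (SE 0.30, limma adjusted p = 0.0005831). The week 1 DP libraries stood apart: their mean over the T-cell identity genes, each centred on its own mean over all libraries, lay between -0.73 and -0.71, and no other untreated library was below -0.24. The same kind of mean over 5 epithelial genes was 2.31 to 3.24 in week 1 DP, but it was also 1.86 to 2.44 in week 1 SP and 1.85 to 1.98 in week 6 DN. The numbers in the library codes also followed the sort, since 10 of 10 untreated DN libraries had a code of 46 or higher and 3 of 24 DP and SP libraries did. What the code stands for is not stated.

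Eomes and Tbx21 (T-bet) are T-box transcription factors that share many target genes. T-bet is induced by inflammatory cytokines and drives effector differentiation, and Eomes is linked with memory and with the response to interleukin-15. Zeb2 is a zinc-finger repressor that acts with T-bet in terminal effector cells. Cx3cr1 is the receptor for fractalkine and marks effector memory cells of the blood. In models of infection, tissue-resident CD8+ cells are known for low Eomes and reduced T-bet.

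The stretches upstream of the RefSeq start sites are shown because the T-box factors and Zeb2 are themselves DNA-binding proteins, and 3 short motifs were looked for on both strands. These were the T-box half-site GGTGTGA, the E-box CACCTG that ZEB proteins bind, and TGTGGT, bound by RUNX proteins. Each sequence is the 250 bases before the start in GRCm38.p6, read 5′ to 3′ on the gene's strand, with matches in capitals.
Eomes: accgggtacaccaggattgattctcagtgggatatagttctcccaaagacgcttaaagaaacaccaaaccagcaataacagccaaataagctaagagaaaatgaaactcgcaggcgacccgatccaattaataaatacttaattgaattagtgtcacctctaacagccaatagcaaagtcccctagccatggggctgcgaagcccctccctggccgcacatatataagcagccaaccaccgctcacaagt
Tbx21: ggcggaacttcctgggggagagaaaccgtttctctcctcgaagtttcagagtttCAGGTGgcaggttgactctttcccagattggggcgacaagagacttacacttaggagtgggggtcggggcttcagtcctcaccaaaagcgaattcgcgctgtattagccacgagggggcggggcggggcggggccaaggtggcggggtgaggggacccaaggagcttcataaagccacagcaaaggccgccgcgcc
Cx3cr1: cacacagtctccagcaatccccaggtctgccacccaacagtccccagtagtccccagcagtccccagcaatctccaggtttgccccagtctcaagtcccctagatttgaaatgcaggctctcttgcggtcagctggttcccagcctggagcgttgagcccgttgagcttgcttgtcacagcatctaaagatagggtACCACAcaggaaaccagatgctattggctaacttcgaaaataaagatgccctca
The Eomes stretch is chr9:118477939-118478188 on the plus strand, with its last bases inside the RefSeq span of the gene, which begins at 118478186, and held none of the 3 motifs. That of Tbx21 is chr11:97115332-97115581 on the minus strand and held 1 E-box on its other strand, CAGGTG, 196 bases before the start. That of Cx3cr1 is chr9:120068297-120068546 on the minus strand and held 1 RUNX motif on its other strand, ACCACA, 54 bases before the start. The 4 RefSeq start sites of Zeb2 on chromosome 2 gave windows with no match. Among 32817 windows of this length, 3.334% held the T-box half-site, 17.22% the E-box and 14.04% the RUNX motif. The matches describe the letters only.

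Eomes separated the tumor subsets in a graded order. It was lowest in DP, intermediate in SP and highest in DN, and it was the one gene of the 4 past the test in each of the 3 pooled subset comparisons. Over all weeks the DP libraries had a lowest, median and highest Eomes value of -0.21, 0.46 and 1.34. The SP libraries had 0.64, 1.32 and 2.32. The DN libraries had 1.28, 2.03 and 2.47. The pooled ranges touched only narrowly for DP and DN, where the highest DP library lay above the lowest DN library.

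Week by week, DP and DN never overlapped. At week 1 Eomes was -0.21, 0.73 and 0.21 in the DP libraries, 1.32, 1.36 and 0.98 in SP, and 1.28 and 2.33 in DN. At week 2 it was 0.37, 0.46, 0.38 and 0.17 in DP, 1.11, 0.64 and 0.87 in SP, and 1.72, 1.67 and 1.61 in DN. At these weeks every DP library lay below every SP library, and at week 2 every SP library lay below every DN library. At week 4 the values were 1.10, 0.24 and 1.34 in DP, 1.55 and 0.95 in SP, and 2.32, 2.34 and 1.83 in DN, with DP and SP overlapping. At week 6 they were 1.05, 1.31 and 0.65 in DP, 2.04, 2.11 and 2.32 in SP, and 2.47 and 2.23 in DN. By week 6 it was SP and DN that overlapped, and DP that lay apart.

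With the weeks weighted equally, Eomes was lower in DP than in DN (difference -1.37, SE 0.16, limma adjusted p = 6.446e-06). It was lower in DP than in SP (difference -0.75, SE 0.16, limma adjusted p = 0.009067) and in SP than in DN (-0.62, SE 0.17, limma adjusted p = 0.01383). Of all genes, 19.5% passed the test between DP and DN, 3.48% between DP and SP and 19.4% between SP and DN, so 1 of 4 genes called is close to the background in the comparisons with DN. In size, 0.578% of genes had a larger difference than Eomes between DP and DN, 1.12% between DP and SP and 8.93% between SP and DN. The weekly DP minus DN differences of Eomes were -1.56, -1.32, -1.27 and -1.34 at weeks 1, 2, 4 and 6 (SE between 0.29 and 0.35). The difference at week 6 minus that at week 1 was 0.22 (SE 0.49, 95% interval -0.80 to 1.24, limma adjusted p = 0.8048), an interval that leaves room for a change of either sign.

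Without week 1, Eomes differed between DP and DN by -1.31 (SE 0.18, limma adjusted p = 3.303e-05) and between DP and SP by -0.68 (SE 0.18, limma adjusted p = 0.08975), so the second call was lost. With a term for the run of library codes, DP minus DN was -1.69 (SE 0.30, limma adjusted p = 0.006073) and SP minus DN was -0.95 (SE 0.32, limma adjusted p = 0.1769). Among libraries with codes 46 to 61, the DP library of week 2 had an Eomes value of 0.17 against 1.61 to 1.72 in DN. The DP library of week 6 with such a code had 0.65 against 2.23 and 2.47 in DN, and the SP library had 2.32.

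**Figure D1:**
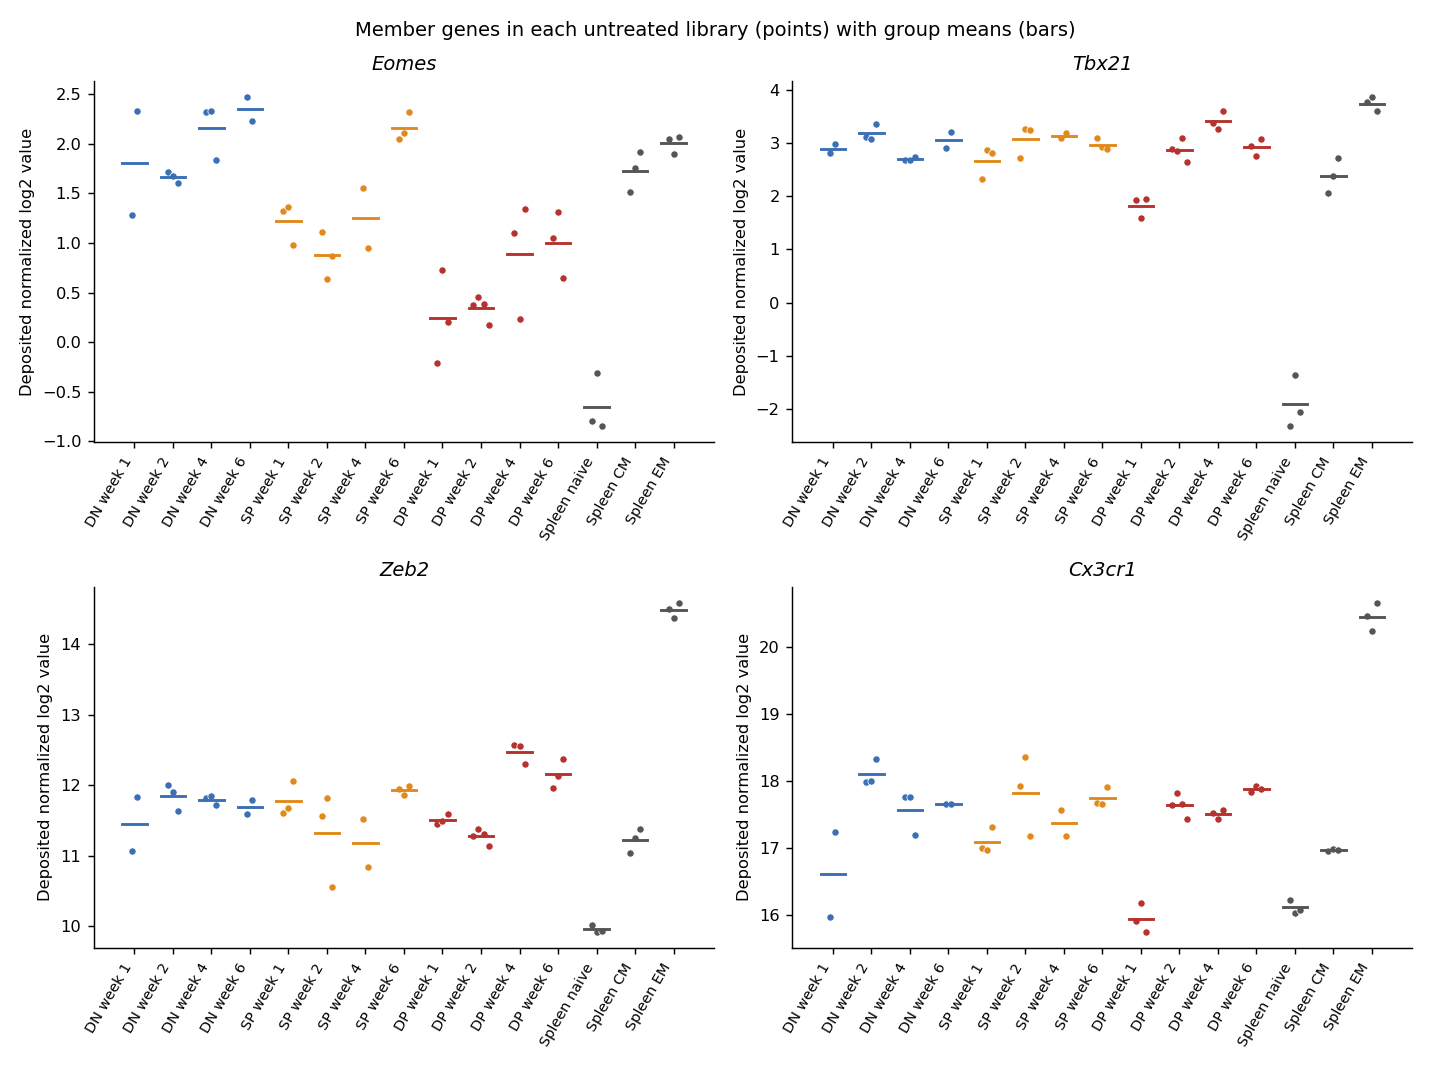
Deposited normalized log2 values (vertical axes) of Eomes, Tbx21, Zeb2 and Cx3cr1 in each untreated library (points) by sorted subset and week or by spleen group (horizontal axes), with bars at group means and blue for DN, orange for SP, red for DP and grey for spleen. Eomes falls from DN to DP, while spleen EM stands above all other groups for Zeb2 (mean 14.49) and Cx3cr1 (mean 20.46).

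In the spleen Eomes was -0.80, -0.31 and -0.84 in the naive libraries, 1.52, 1.75 and 1.92 in CM and 2.05, 1.90 and 2.07 in EM. The naive libraries lay below all others in the table, and CM and EM overlapped. Eomes was higher than in naive cells by 2.66 in EM (SE 0.31, limma adjusted p = 1.613e-06) and by 2.38 in CM (SE 0.31, limma adjusted p = 1.35e-05), and EM minus CM was 0.28 (95% interval -0.37 to 0.92, limma adjusted p = 0.593). Pooled over weeks, DP and SP had means below both memory groups (0.62 and 1.38, against 1.73 in CM and 2.01 in EM). DP lay below spleen EM (difference -1.39, SE 0.24, limma adjusted p = 0.0002243), DN minus EM was -0.01 (95% interval -0.53 to 0.51, limma adjusted p = 0.9796), and SP minus EM was -0.63 (limma adjusted p = 0.0597). The SP difference passed under 5 of 9 other settings of the fit (limma adjusted p from 0.003892 to 0.04953). Of these, ordinary degrees of freedom, quantile normalization and only the groups compared called 4595, 4606 and 4582 of all genes. The main fit called 3107. Median rescaling and a term for replicate number gave limma adjusted p = 0.04938 and 0.04953. The SP difference also passed without week 2 SP replicate 1 (-0.66, limma adjusted p = 0.04831). Without week 4 SP replicate 1, which left a single library in that group, it was -0.71. In the full order of 15 group means, from week 6 DN at 2.35 to spleen naive at -0.65, 11 of 14 pairs of neighbours had overlapping ranges. The 3 that did not were week 2 DN above week 4 SP, week 2 SP above week 2 DP, and week 1 DP above spleen naive.

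Tbx21, the partner T-box factor, did not follow the Eomes gradient. Its lowest, median and highest values were 1.58, 2.88 and 3.60 over the DP libraries, 2.33, 2.92 and 3.27 over SP, and 2.68, 2.94 and 3.35 over DN. The 3 ranges lay over each other. Pooled over weeks, Tbx21 differed by -0.20 between DP and DN (95% interval -0.46 to 0.05, limma adjusted p = 0.2578). The difference was -0.21 between DP and SP (95% interval -0.45 to 0.04, limma adjusted p = 0.3761), and 0.00 between SP and DN (95% interval -0.26 to 0.27, limma adjusted p = 0.989).

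What varied was Tbx21 in DP over time. The week 1 DP libraries had 1.93, 1.58 and 1.93, the lowest values of any tumor library, against 2.81 and 2.98 in DN of that week and 2.33, 2.86 and 2.81 in SP. The week 4 DP libraries had 3.37, 3.26 and 3.60, against 2.68, 2.68 and 2.73 in DN and 3.08 and 3.18 in SP. DP thus lay below both other subsets at week 1 and above both at week 4, without overlap either time. At week 2 the DP values were 2.88, 2.85, 3.09 and 2.64, and at week 6 they were 2.94, 2.74 and 3.07. In both weeks they overlapped with those of the other 2 subsets.

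In DP, Tbx21 was 1.10 higher at week 6 than at week 1 (SE 0.23, limma adjusted p = 0.00163), and Cx3cr1 was also called in that comparison, so 2 of 4 genes were called against 25% of all genes. The T-cell identity genes moved the same way: Cd8a was higher by 1.63 (limma adjusted p = 5.53e-08), and 4 of 5 epithelial genes were lower, with a median of -2.62. Their part in the Tbx21 result was not tested. Against week 2, Tbx21 in DP differed by 0.05 (95% interval -0.40 to 0.51, limma adjusted p = 0.947), and none of the 4 genes was called, with 0.246% of all genes called. Eomes in DP differed by 0.76 between weeks 6 and 1 (SE 0.31, limma adjusted p = 0.0775), and by 1.0 without week 1 DP replicate 2, which passed (limma adjusted p = 0.02849). In SP 0 of 4 genes were called in week 6 against week 1 and 0 in week 6 against week 2, with backgrounds of 2.72% and 0.644%. In DN the counts were also 0 and 0, with backgrounds of 5.79% and 0.72%. In SP, the largest of these differences was that of Eomes between weeks 6 and 2 (1.28, SE 0.31, limma adjusted p = 0.06111). In these 4 comparisons the unadjusted p was below 0.05 for 1789, 1311, 2295 and 1395 genes of the table.

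Whether the subset difference itself changed was tested between weeks. From week 1 to week 6, 0 of 4 genes passed for DP minus DN (18.1% of all genes) and 0 of 4 for SP minus DN (4.66% of all genes). The Tbx21 value was 0.93 for DP minus DN (SE 0.37, limma adjusted p = 0.08418), and that of Cx3cr1 was 0.89 (SE 0.48, limma adjusted p = 0.2116). Without week 1 DN replicate 1 the Cx3cr1 value was 1.52 and passed (limma adjusted p = 0.03729). Further pairs of weeks were compared after the values had been seen, picked because library ranges lay apart in opposite directions. Their adjusted p does not account for that choice. Between weeks 1 and 4, the DP minus DN difference of Tbx21 moved from -1.08 to 0.72, a change of 1.79 (SE 0.35, limma adjusted p = 0.001101), in a comparison where 24.4% of all genes passed. The change of DP minus SP over the same weeks was 1.13 (SE 0.35, limma adjusted p = 0.05237).

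**Figure D2:**
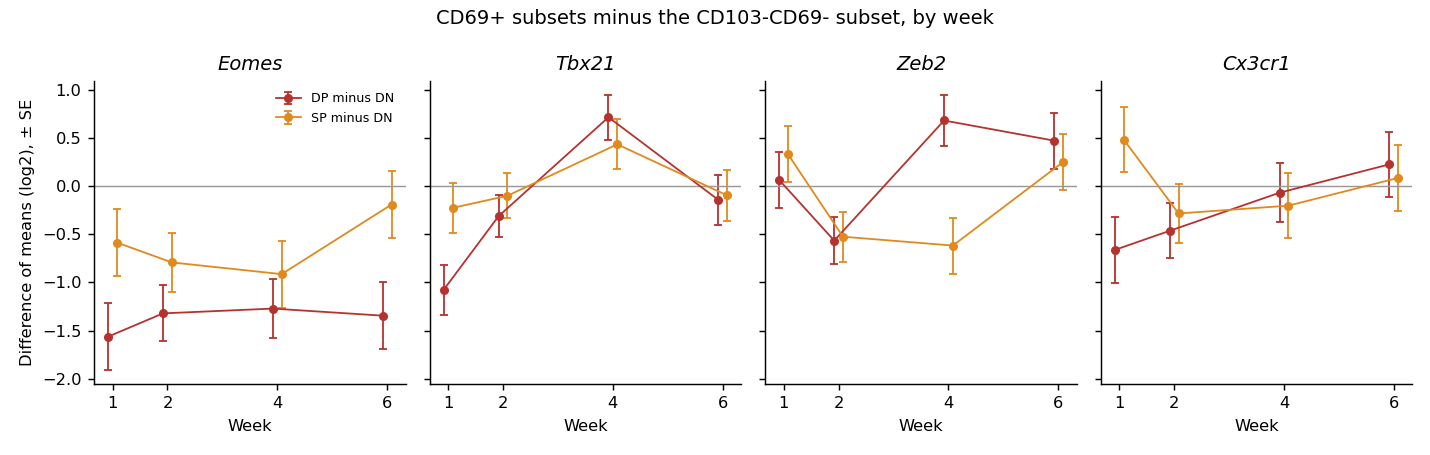
Difference of group means (log2, vertical axis) between DP or SP and DN at each week (horizontal axis) for the 4 genes, with bars of 1 SE. The DP minus DN line of Eomes stays between -1.56 and -1.27, that of Tbx21 runs from -1.08 at week 1 to 0.72 at week 4, and that of Zeb2 from -0.57 at week 2 to 0.68 at week 4.

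In the spleen Tbx21 had the widest step from naive to EM of the 4 genes. It was -2.32, -1.36 and -2.05 in naive libraries, 2.06, 2.38 and 2.72 in CM, and 3.77, 3.85 and 3.59 in EM. The 3 groups did not overlap. EM exceeded naive by 5.65 (SE 0.23, limma adjusted p = 2.66e-13) and CM by 1.35 (SE 0.23, limma adjusted p = 0.0006655), and CM exceeded naive by 4.30 (SE 0.23, limma adjusted p = 3.925e-11). Each tumor subset had less Tbx21 than spleen EM: the difference was -0.98 in DP (SE 0.18, limma adjusted p = 0.0004), -0.78 in SP (SE 0.19, limma adjusted p = 0.003726) and -0.78 in DN (SE 0.19, limma adjusted p = 0.006285). The call for DN was lost when a term for the run of library codes was added (difference -0.72, limma adjusted p = 0.2029). Among the 14 pairs of neighbours in the order of group means, 12 overlapped. Those that did not were spleen CM above week 1 DP and week 1 DP above spleen naive.

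Zeb2 was set apart by spleen EM. Its values were 10.02, 9.92 and 9.93 in naive libraries, 11.04, 11.25 and 11.37 in CM and 14.50, 14.38 and 14.59 in EM. No other library of the table reached the EM values, the highest being a week 4 DP library at 12.57. EM exceeded naive by 4.53 (SE 0.26, limma adjusted p = 3.792e-11) and CM by 3.27 (SE 0.26, limma adjusted p = 1.096e-07), and CM exceeded naive by 1.26 (SE 0.26, limma adjusted p = 0.001724). Tumor DP, SP and DN lay below EM by differences of -2.63, -2.94 and -2.80 (SE between 0.20 and 0.21, largest limma adjusted p = 1.963e-08).

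Cx3cr1 had the same extreme. It was 16.24, 16.04 and 16.09 in naive libraries, 16.95, 16.99 and 16.98 in CM and 20.47, 20.24 and 20.66 in EM. Again EM lay above every other library, of which the highest was a week 2 SP library at 18.36. EM exceeded naive by 4.33 (SE 0.30, limma adjusted p = 8.359e-10) and CM by 3.48 (SE 0.30, limma adjusted p = 3.319e-07), and CM minus naive was 0.86 (95% interval 0.23 to 1.49, limma adjusted p = 0.05249). The last difference passed under 7 of 8 other settings (limma adjusted p from 0.004144 to 0.04158), but under none that left out a spleen CM or naive library. Of these settings, ordinary degrees of freedom, quantile normalization and only the groups compared called 3425, 3563 and 4177 of all genes. The main fit called 1986. In the other passing settings the limma adjusted p lay between 0.0384 and 0.04158. DP, SP and DN lay below EM by differences of -3.21, -2.94 and -2.96 (SE between 0.24 and 0.25, largest limma adjusted p = 9.309e-08).

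Between EM and naive 4 of 4 genes were called, against 24.6% of all genes. Between CM and naive 3 of 4 were called (18.8% of all genes), and between EM and CM 3 of 4 (15.4% of all genes), with Cx3cr1 and Eomes the respective exceptions. Against spleen EM, 4 of 4 were lower in DP (29.7% of all genes called), 3 of 4 in SP (29.4%) and 3 of 4 in DN (20.6%), the exception being Eomes. These 3 comparisons share the same 3 EM libraries. Tumor and spleen differ in tissue as well as in subset, and the bulk values cannot tell fewer cells of a type from less RNA per cell.

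**Figure D3:**
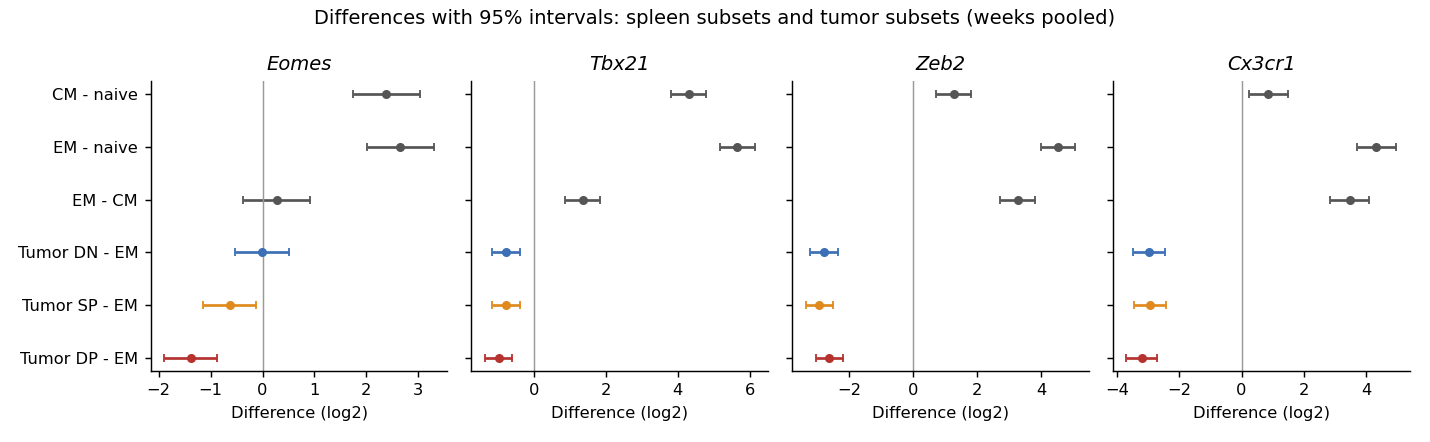
Differences of means (log2, horizontal axis) with 95% intervals for 3 spleen comparisons (grey) and for each tumor subset, weeks pooled, minus spleen EM (blue DN, orange SP, red DP), 1 panel per gene and 1 row per comparison. The tumor differences of Zeb2 and Cx3cr1 from spleen EM lie between -3.21 and -2.63, while the DN difference of Eomes, -0.01, sits at the zero line.

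Within the tumor, Zeb2 showed no pooled call between subsets. Its lowest, median and highest values were 11.13, 11.59 and 12.57 in DP, 10.56, 11.67 and 12.06 in SP and 11.06, 11.80 and 12.002 in DN. DP minus DN was 0.16 (95% interval -0.12 to 0.45, limma adjusted p = 0.4353), DP minus SP was 0.30 (95% interval 0.03 to 0.58, limma adjusted p = 0.2174) and SP minus DN was -0.14 (95% interval -0.44 to 0.15, limma adjusted p = 0.5182). The pooled values hid a change of order with time. At week 2 the DP libraries had 11.28, 11.38, 11.31 and 11.13, below the DN libraries at 12.002, 11.90 and 11.63. At week 4 the DP libraries had 12.57, 12.56 and 12.30, above DN at 11.82, 11.85 and 11.71 and SP at 11.52 and 10.84. At week 6 they had 11.96, 12.13 and 12.38, above DN at 11.59 and 11.78. DP was thus below DN at week 2 and above it at weeks 4 and 6, with no overlap.

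These between-week changes of Zeb2 were also compared after the values had been seen, and were picked in the same way. Their adjusted p does not account for that choice. The DP minus SP difference moved from -0.27 at week 1 to 1.30 at week 4, a change of 1.57 (SE 0.39, limma adjusted p = 0.01922), where 7.39% of all genes passed. The change of DP minus DN was 1.25 from week 2 to week 4 (SE 0.36, limma adjusted p = 0.06116), where 2.84% of all genes passed. From week 2 to week 6 it was 1.04 (SE 0.38, limma adjusted p = 0.871), where 0% of all genes passed the adjusted test and 576 had an unadjusted p below 0.05. SP minus DN changed by 0.86 from week 4 to week 6 (SE 0.41, limma adjusted p = 0.3877), where 0.104% of all genes passed. Zeb2 and Cx3cr1 are also expressed by macrophages. The centred mean of 7 of 12 listed myeloid genes stood at 0.48 for DP against -0.18 for SP in week 1, and at 0.45 against 0.18 in week 4, the weeks of the called change. For DN and DP it was -0.70 and -0.30 at week 2, 0.11 and 0.45 at week 4, and 0.30 and 0.70 at week 6. Its range over DP libraries was -0.89 to 0.47 at week 2 and -0.13 to 0.79 at week 4. Their part in the Zeb2 values was not tested.

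Cx3cr1 differed little between the pooled subsets. Its lowest, median and highest values were 15.76, 17.57 and 17.94 in DP, 16.97, 17.57 and 18.36 in SP and 15.98, 17.72 and 18.33 in DN. DP minus DN was -0.24 (95% interval -0.57 to 0.09, limma adjusted p = 0.3052), DP minus SP was -0.26 (95% interval -0.58 to 0.06, limma adjusted p = 0.387) and SP minus DN was 0.02 (95% interval -0.32 to 0.36, limma adjusted p = 0.941). Its low point was DP at week 1, with 15.92, 16.18 and 15.76, against 17.84, 17.94 and 17.89 at week 6. DP was higher at week 6 than at week 1 by 1.94 (SE 0.30, limma adjusted p = 9.982e-05), where 1.52% of genes had a larger change. The low T-cell identity genes and high epithelial genes of the week 1 DP libraries, the latter shared with SP, stood beside this result, and their part was not tested. From week 2 to week 6, when DP was 17.65, 17.83, 17.67 and 17.43 at the start, the change was 0.24 (95% interval -0.35 to 0.83, limma adjusted p = 0.7668). In DN the 2 libraries of week 1 had 15.98 and 17.25, a wide gap, and week 6 minus week 1 was 1.05 (SE 0.37, limma adjusted p = 0.1002). Without the second of these libraries it was 1.68 (limma adjusted p = 0.009501).

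For Zeb2, 12 of 14 pairs of neighbours in the order of group means had overlapping ranges. The pairs apart were spleen EM above week 4 DP, and week 4 SP above spleen naive. For Cx3cr1 it was also 12 of 14, and the pairs apart were spleen EM above week 2 DN, and week 2 DN above week 6 DP.

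Under ICB, Eomes again ran from DN through SP to DP. It was 9.05 and 9.41 in the DN libraries, 7.93, 8.90 and 8.45 in SP and 7.44, 7.23 and 6.60 in DP. The 3 groups did not overlap. The differences did not pass the test: DP minus DN was -2.14 (SE 0.43, 95% interval -3.26 to -1.02, limma adjusted p = 0.05754), DP minus SP was -1.33 (SE 0.38, 95% interval -2.34 to -0.33, limma adjusted p = 0.3209) and SP minus DN was -0.81 (SE 0.43, 95% interval -1.93 to 0.32, limma adjusted p = 0.3515). Leaving out ICB DP replicate 1 or 3 put the DP minus DN difference past the test, at -2.31 (limma adjusted p = 0.04914) and -1.90 (limma adjusted p = 0.04062).

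Zeb2 was the gene called under ICB, and it ran the other way. It was 11.91, 11.92 and 11.97 in DP, 11.47, 11.33 and 11.48 in SP and 10.66 and 10.61 in DN. The 3 groups did not overlap, with DP highest and DN lowest. DP exceeded DN by 1.30 (SE 0.08, limma adjusted p = 0.004514) and SP exceeded DN by 0.80 (SE 0.08, limma adjusted p = 0.01882), while DP minus SP was 0.50 (95% interval 0.31 to 0.70, limma adjusted p = 0.1532). Thus 1 of 4 genes was called for DP against DN (7.49% of all genes), 1 of 4 for SP against DN (3.83%) and 0 of 4 for DP against SP (0.0372% of all genes, and 1733 genes at an unadjusted p below 0.05).

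Myeloid genes moved with Zeb2 in these libraries. Of 12 such genes listed, 10 were measured, and 9 were higher in DP than in DN with a median difference of 2.25, among them Csf1r (2.56, limma adjusted p = 0.01093), the receptor for macrophage colony-stimulating factor, and Cd14 (2.60, limma adjusted p = 0.04074). Between SP and DN 0 of 10 passed, with a median of 1.05. The centred mean of the list ranged over libraries from -1.21 to -1.13 in DN, -0.46 to 0.15 in SP and 0.86 to 1.001 in DP. Markers of several other cell types were also lowest in DN, but those of B cells had their highest mean there. The mean of 4 B-cell genes was 0.49 in DN, -0.06 in SP and -0.27 in DP, with SP libraries from -1.01 to 1.31. The mean of 5 stromal and endothelial genes was -1.16 in DN, 0.33 in SP and 0.45 in DP, that of 6 epithelial genes was -1.12, 0.78 and -0.03, and that of 7 NK and innate-like genes was -0.60, -0.17 and 0.57. Their part in the Zeb2 result was not tested. The SP call was lost without ICB DN replicate 1 (difference 0.82) or without ICB DN replicate 2 (difference 0.77), in fits with a single DN library. Both Zeb2 calls were lost without limma's trend option (limma adjusted p = 0.06379 for DP and 0.1199 for SP). With that setting 0 of 13458 genes passed in either comparison, so the loss was not particular to Zeb2.

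Tbx21 and Cx3cr1 had small differences under ICB. Tbx21 was 12.24, 12.28 and 12.35 in DP, 12.46, 12.20 and 12.47 in SP and 12.07 and 11.98 in DN, so that both CD69+ subsets lay above DN. DP minus DN was 0.27 (95% interval -0.02 to 0.56, limma adjusted p = 0.2118) and SP minus DN was 0.35 (95% interval 0.06 to 0.65, limma adjusted p = 0.1633). Cx3cr1 was 11.63, 11.63 and 11.66 in DP, 11.91, 11.99 and 11.82 in SP and 11.49 and 11.51 in DN, highest in SP with no overlap. SP minus DN was 0.41 (95% interval 0.19 to 0.62, limma adjusted p = 0.07034). Without ICB SP replicate 2, SP minus DN passed for Tbx21 (0.44, limma adjusted p = 0.04182) and for Cx3cr1 (0.36, limma adjusted p = 0.04475), and without replicate 3 for Cx3cr1 (0.45, limma adjusted p = 0.03372). Because the 2 tables were normalized separately, ICB was not compared with no treatment.

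**Figure D4:**
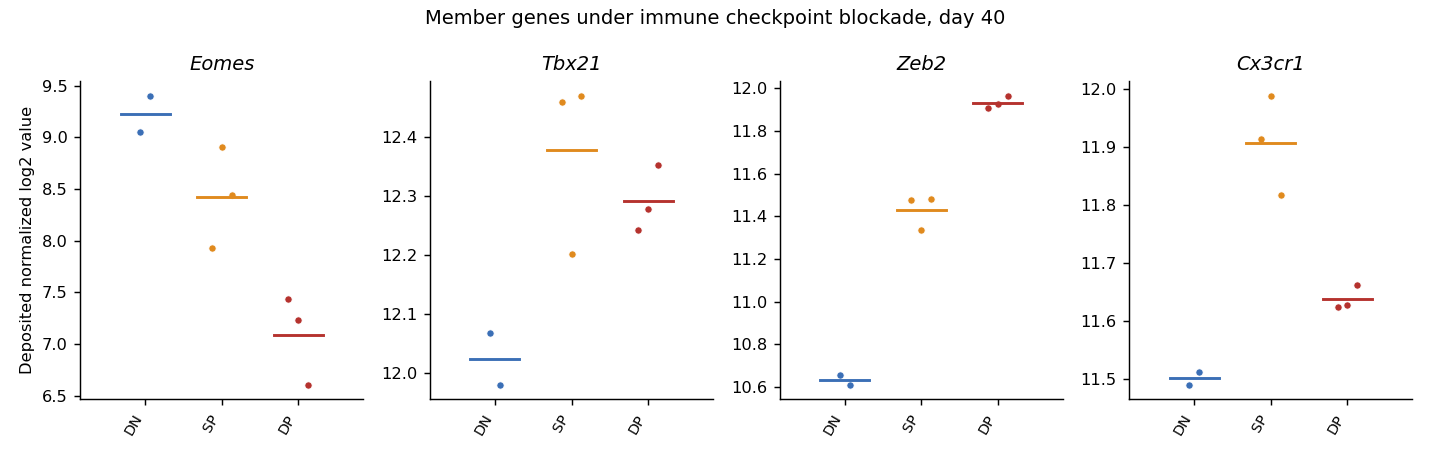
Deposited normalized log2 values (vertical axes) of the 4 genes in each ICB library at day 40 (points) with bars at group means, by subset (horizontal axis). Eomes steps down from DN (mean 9.23) to DP (mean 7.09), Zeb2 steps up from DN (10.63) to DP (11.93), and SP exceeds DN by 0.35 for Tbx21 and by 0.41 for Cx3cr1.

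Genes of the same pathway were then counted in lists, to be read beside the calls over all genes. Those were 2601 of 10560 for EM against naive, 2057 for DP against DN, 2044 for SP against DN and 368 for DP against SP. With the code term they were 199 for DP and 116 for SP against DN. With quantile normalization, which left the degrees of freedom unscaled, they were 3648 and 3689. Without week 1 they were 2460 for DP against DN and 44 for DP against SP. Under ICB 1008 and 515 of 13458 passed for DP and SP against DN, and 6212 and 5187 with quantile normalization. The known or proposed T-box targets, such as cytokines, chemokines and granzymes, held 14 measured genes. Between spleen EM and naive 12 were higher and 0 lower (median 4.76, against -0.02 over all genes), led by Ccl5, a chemokine (7.75), and Gzmk, a granzyme (6.41). Between DP and DN of untreated tumors 1 was higher and 10 were lower (median -0.63, against -0.01 over all genes); with a term for the run of library codes it was 1 and 4 (median -0.79). The one higher was Gzmb, the cytotoxic protease granzyme B, by 1.98 (SE 0.33, limma adjusted p = 0.0002329). Those lower included Ccl5 (-1.61, SE 0.13, limma adjusted p = 9.844e-08), Gzmk (-1.54, SE 0.31, limma adjusted p = 0.001333) and Cxcr3, a chemokine receptor (-1.15, SE 0.11, limma adjusted p = 1.545e-06). Without week 1 the counts were 2 higher and 4 lower (median -0.22).

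The targets did not all follow 1 direction. Between DP and SP 0 were higher and 9 lower (median -0.82), but without week 1 0 were higher and 1 was lower (median -0.48). Between SP and DN 3 were higher and 3 lower (median 0.27), 0 and 1 with the code term, and 6 and 4 with quantile normalization. Under ICB 5 of 14 were higher in DP than in DN and 7 of 14 in SP than in DN, with 0 lower in either, again led by Gzmb (2.43 and 1.97). Ccl5 differed there by 0.08 between DP and DN (limma adjusted p = 0.6106).

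The inputs and partners of the T-box factors, which are cytokine receptors, STAT proteins and cofactors, held 17 measured genes in the untreated table. Between spleen EM and naive 13 were higher and 1 lower (median 1.32), led by Il2ra, a chain of the interleukin-2 receptor (3.52), and Bhlhe40, a transcriptional repressor (3.48). In tumors 7 were higher and 3 lower between SP and DN (median 0.18), and 2 higher and 4 lower between DP and DN (median 0.01). With the code term these counts were 0 and 0 for SP and 0 and 2 for DP, and with quantile normalization they were 8 and 3 for SP and 4 and 7 for DP. Il18r1, a chain of the interleukin-18 receptor, was lower in DP than in DN (-1.0, limma adjusted p = 7.41e-05), and Stat4, which relays the interleukin-12 signal, was lower by a difference of -0.44 (limma adjusted p = 0.000115). The order of the subsets changed with the week. The centred mean of the list was -0.66 in DP against 0.13 in DN at week 1, and 0.22 against 0.34 at week 2. At week 4 it was 0.41 against 0.03, and at week 6 it was 0.21 against 0.01. From week 1 to week 6 in DP 12 of 17 were higher and 0 lower (median 0.81), where 25% of all genes were called. The T-cell identity mean was -0.72 in DP at week 1 and 0.00 at week 6, and the epithelial mean 2.79 and 0.20; their part in the list was not tested. Under ICB 5 of 18 were higher in DP than in DN and 5 of 18 in SP than in DN, with Il2ra in front (2.22 and 1.80); with quantile normalization 11 were higher and 3 lower in each.

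Among factors of the opposing, less differentiated memory state, those that passed between DN and either CD69+ subset were lower in the CD69+ subset. Of 7 measured, 5 were lower and 0 higher in DP than in DN (median -0.49), and 4 lower and 0 higher in SP than in DN (median -0.40). With the code term 1 was lower for DP (median -0.46) and 2 for SP (median -0.44), with 0 higher in either. They were led by Lef1 (-1.78 and -2.03) and Tcf7 (-0.77 and -1.05), transcription factors of naive and stem-like memory T cells. Under ICB 3 of 8 were lower in DP and 4 of 8 in SP than in DN, with 0 higher in either; with quantile normalization 7 were lower and 1 higher in each. Tcf7 differed by -2.79 and -2.50.

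Other genes of circulating effector cells split into 2 sets. Of 10 measured, 8 were higher and 0 lower in spleen EM than in naive (median 4.06). In the tumor 2 were higher and 5 lower in DP than in DN (median -0.71), and 3 higher and 5 lower in SP than in DN (median -1.01). With the code term the counts were 2 and 3 for DP, and 1 and 3 for SP. S1pr5 and S1pr1, receptors by which T cells leave tissue, were lower in DP than in DN (-2.58 and -2.29), and Klf2, which drives S1pr1, was lower in SP than in DN (-1.98). Gzma, granzyme A, was higher in DP than in DN (1.57, limma adjusted p = 7.71e-05). Under ICB 4 of 11 were higher and 4 lower in DP, with S1pr1 at -5.18 and Gzma at 4.58, and 4 higher and 3 lower in SP (4 and 6 with quantile normalization).

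**Figure D5:**
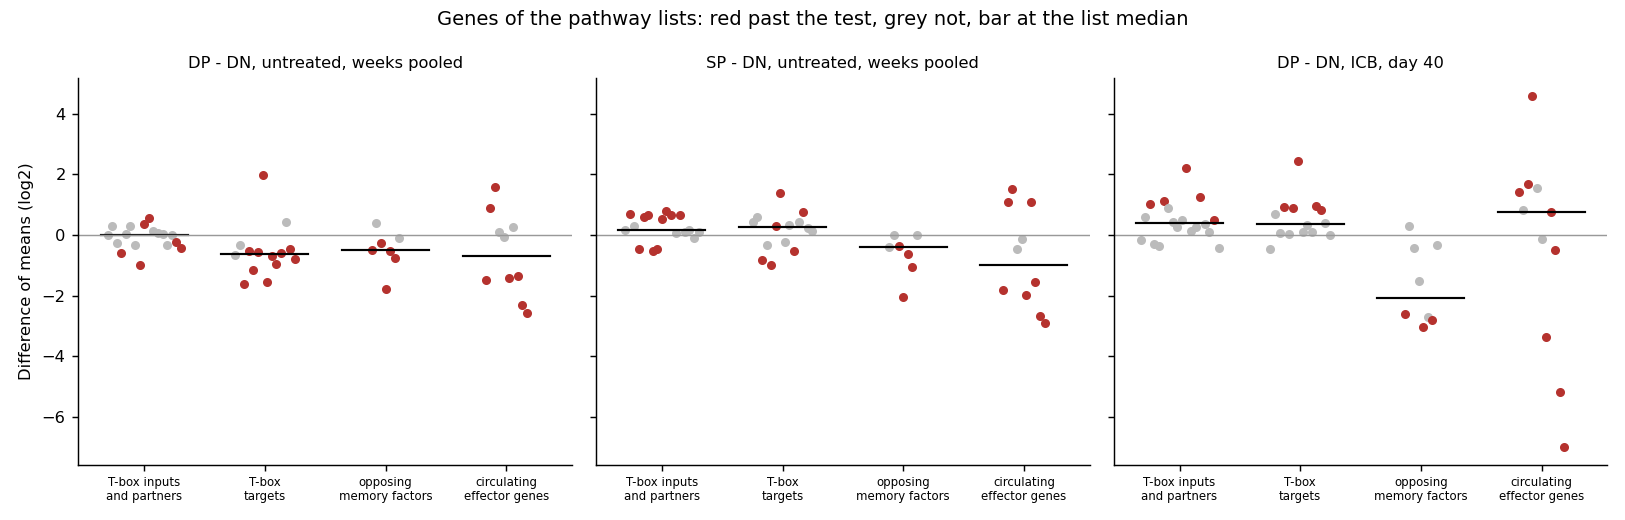
Difference of group means (log2, vertical axis) of each measured gene in 4 pathway lists (horizontal axis), for DP minus DN and SP minus DN in untreated tumors and DP minus DN under ICB, with red points past the test, grey points not, and a bar at each list's median. The T-box targets have a median of -0.63 for untreated DP minus DN, with Gzmb at 1.98, and the opposing memory factors lie mostly below 0 in each panel.

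Markers of NK and innate-like cells also moved with the subsets. Only 4 of the listed genes were measured in the untreated table. Of these, 4 were higher in DP than in DN (median 1.70, where 19.5% of all genes were called). Between SP and DN 1 was higher (median 0.58, where 19.4% of all genes were called). Their centred mean was -0.20 in DP, 0.01 in SP and 0.04 in DN at week 1. In DP against DN it was 1.33 against -1.06 at week 2, 1.06 against -0.72 at week 4 and 0.78 against -1.36 at week 6. NK cells express Eomes and Tbx21, and the part of such markers in the values of these genes was not tested.

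The genes whose 15 untreated group means followed each member most closely are given as a description, since group means share the spread and the normalization of 1 table. For Eomes they were Smpdl3b (r = 0.90), Ccl5 (0.89) and Gm11435 (0.89), and over the 12 tumor groups alone these were 0.91, 0.91 and 0.86. For Tbx21 they were Cd44 (0.98), an adhesion receptor of activated T cells, Prr13 (0.98) and F730043M19Rik (0.97), with 0.88, 0.71 and 0.67 over tumor groups. For Zeb2 they were Ptpn4 (0.90), Rnf216 (0.88) and Cmklr1 (0.86), and over tumor groups 0.66, 0.21 and 0.48. For Cx3cr1 they were Gm21781 (0.89), Trip4 (0.87) and Ptpn4 (0.86), with 0.69, 0.51 and 0.74 over tumor groups. Without the spleen groups the values of Tbx21, Zeb2 and Cx3cr1 were lower, and those of Eomes stayed between 0.86 and 0.91.

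Among the members, Zeb2 and Cx3cr1 followed each other over the 15 groups (r = 0.84) but less over the 12 tumor groups (r = 0.28). Tbx21 and Cx3cr1 had r = 0.60 over all groups and 0.76 over the tumor groups. Eomes had r between 0.18 and 0.34 with the other 3 genes over the tumor groups.

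The loci overlap other annotated transcripts, which matters because the strand setting of the counting is not stated. Eomes lies on chromosome 9 from 118478186 to 118486132 (plus strand, RefSeq, GRCm38.p6) and overlaps the antisense gene Gm33460. Zeb2 lies on chromosome 2 from 44983512 to 45117442 (minus strand) and overlaps the antisense gene Zeb2os. Tbx21 lies on chromosome 11 from 97098007 to 97115331 (minus strand). Cx3cr1 lies on chromosome 9 from 120048683 to 120068296 (minus strand), and its longer span in GENCODE covers Xirp1, Csrnp1 and other genes. Reads of such partners could not be told apart here.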

How the data were processed

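CD8+ T-cell libraries were made with QuantSeq 3′ mRNA-Seq FWD from 10 ng RNA and read as 75-base single ends, per the labels' protocols; HISAT2, HTSeq and mm10 are named, without versions, in the submitters' processing notes. The authors deposited normalized log2 values in 2 tables; the method and log base are not given in the sources used here, and the base was inferred from the span of the values. Library depth is unknown. All 51 libraries were grouped by the labels into 18 groups.

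Each table was fitted apart with limma 3.58.1 (R 4.3.3, statmod 1.5.0; group means, trend and robust options), with Benjamini-Hochberg adjustment over all genes and a threshold of 0.05. The residuals had rank 18 of 28 degrees of freedom in the untreated table and 2 of 5 in the ICB table, so degrees of freedom and variances were scaled by that ratio. Data for DP against DN were simulated with independent normal noise, and as many residual directions were removed as each table lacked. There 5.158% of unchanged genes in the untreated table had p below the threshold, against 12.16% without the scaling. Over 13458 ICB genes the shares were 5.33% and 25.7%. The simulation builds in the loss that the scaling corrects, so it cannot show that the scaling suits the deposited values. In the same simulations 94.53% of the genes given a difference of 1 were recovered in the untreated table (10560 genes) and 0% in the ICB table; for a difference of 2 the shares were 100% and 61.11%.

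The members and lists were chosen with earlier results of these data known. The genes named were the members, the 3 genes most alike to each over group means, and from each list up to 4 called genes with the largest difference; genes named beyond these (Cd69, Klrg1, Csf1r, the antisense partners and the SP and ICB values set beside another) were chosen for context. P-values measure the spread between these libraries, which may be technical. Promoters come from RefSeq (4 of 4 genes matched, GRCm38.p6). Alternatives were other scalings, degrees of freedom, filters, terms for replicate number and library code, fewer groups, no week 1 and leaving out each library. Figures were drawn with matplotlib 3.10.9.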

Additional observations from a re-analysis of the deposited data

Results flagged for a closer look

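Between weeks, 7 subset differences of single genes had every library of one subset on one side of the other at the earlier week and on the opposite side at the later week. They were picked after the values had been seen, and each change was then fitted with limma and adjusted over all genes. The adjusted p does not account for the choice of weeks, subsets and genes. For Tbx21 the DP minus DN difference changed by 1.79 from week 1 to week 4 (adjusted p = 0.001101), and DP minus SP changed by 1.13 (adjusted p = 0.05237). For Zeb2, DP minus SP changed by 1.57 over the same weeks (adjusted p = 0.01922). DP minus DN of Zeb2 changed by 1.25 from week 2 to week 4 (adjusted p = 0.06116) and by 1.04 from week 2 to week 6 (adjusted p = 0.871), and SP minus DN changed by 0.86 from week 4 to week 6 (adjusted p = 0.3877). For Cx3cr1, DP minus DN changed by 0.69 from week 2 to week 6 (SE 0.44, adjusted p = 0.9652). Both called changes rest on week 1, at which the DP libraries had low T-cell identity genes (mean -0.72 after centring, against -0.06 in both SP and DN). Epithelial genes were high in both DP and SP of that week (means 2.79 and 2.25) and not in DN (mean -1.41); the part of either was not tested.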

How the results depend on the processing

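Eomes stayed lower in DP than in DN under every alternative run in the untreated table, with 23 single libraries left out as well. The calls over all genes changed with the setting as well. Under ICB the main fit called 5, 1008 and 515 of 13458 genes for DP against SP, DP against DN and SP against DN. Ordinary degrees of freedom called 3250, 6101 and 5217, quantile normalization 3210, 6212 and 5187, and median rescaling 169, 3031 and 2151. For week 6 against week 1 in DP the main fit called 2636 of 10560 genes, ordinary degrees of freedom 4196 and quantile normalization 4081. Counts below are the members called, of 4. With ordinary degrees of freedom the counts were 4 for week 6 against week 1 and 1 for week 6 against week 2 in DP, 1 and 1 in SP, 1 for week 6 against week 1 in DN, 1 for the week 6 minus week 1 change of DP against DN, and 3, 3 and 3 for the ICB comparisons. Quantile normalization brought the residual rank to 28 of 28 and 5 of 5, so degrees of freedom were not scaled in its fits. Its counts cannot tell a change of normalization from the loss of the scaling. They were 2 for DP against DN, 4 and 1 for week 6 in DP, 1 and 1 in SP, and 2 for the change of DP against DN. Under ICB they were 3, 2 and 3 for DP against SP, DP against DN and SP against DN. Median rescaling gave 1, 2 and 2 under ICB. Without limma's trend option the ICB counts were 0 for DP against DN and 0 for SP against DN, where 0 of all genes passed as well. The library code run as a term gave 0 for SP against DN, where 116 of all genes passed. Leaving out week 1 gave 0 for DP against SP, where 44 of all genes passed. The code term could not be fitted for ICB. Fitting only the groups compared gave 2 for DP against DN, 2 for week 6 against week 2 in DP, 2 and 1 in SP, 1 for the change of DP against DN, and 4 and 2 under ICB for DP and SP against DN. Beyond the residual rank and the libraries each fit holds, the cause was not tested.

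Replicate numbers were not taken as pairs: residuals of same-numbered libraries had a median correlation of 0.01 in the untreated table (range -0.54 to 0.86, 9 of 39 above 0.1) and 0.36 under ICB (4 of 7 above 0.1). Among untreated DP and SP of the same week the 11 same-numbered pairs were all positive, from 0.01 to 0.86, with 5 above 0.1, against 8 positive of 25 pairs with different numbers. The replicate block was a term for replicate number shared over all weeks and groups, so pairs within a week were not modelled. With this term Eomes differed between DP and SP by -0.74 (limma adjusted p = 0.007924). The replicate block gave 1 for week 6 against week 2 in SP, 1 for the change of DP against DN, and 2 and 2 for DP and SP against DN under ICB. It also called Cx3cr1 for CM against naive (adjusted p = 0.0384) and Eomes for SP against spleen EM (adjusted p = 0.04953).

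Leaving out 1 library at a time gave 0 to 1 for week 6 against week 1 in DN, 0 to 1 for the change of DP against DN, 1 to 2 for DP against DN under ICB and 0 to 3 for SP against DN under ICB. The change of DP against DN for Cx3cr1 passed without week 1 DN replicate 1 (1.52, adjusted p = 0.03729). No result changed its direction past the test. The tests under ICB rest on 2 residual directions, which limits what they can show.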
